A study of Drosophila melanogaster with 8 samples.

Results

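Tall promoter peaks of open chromatin that were found in primordial germ cells (PGCs) and not in somatic cells numbered 1361, of 19504 PGC peaks on chromosome arms 2L, 2R, 3L and 3R and chromosomes 4 and X (21357 on all sequences). A peak was taken when its height in PGCs was 80 RPKM or more, when it shared no base with any somatic peak, and when its summit was no more than 500 bp from an annotated start of transcription in release 6 of the Drosophila melanogaster genome. RPKM is the read coverage scaled to the length and to the mapped reads of a library. Height, overlap and position chose these peaks, so their values for those measures are a description and no test was made on them.

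PGCs and somatic cells came from the same late embryos, collected overnight from flies kept at 25°C that carried a Vas::EGFP transgene, in which GFP-tagged Vasa protein marks the germ line. PGCs were sorted by flow cytometry as the cells with GFP and somatic cells as those without it, and ATAC-seq, in which a transposase cuts accessible DNA, was done on 2 replicates of each. The somatic cells are thus a mixture of all other cell types of the embryo, and a site open in a small share of them can fall below the peak threshold. Each deposited list was called on the average of both replicates, so no value per replicate and no spread were at hand, and nothing says whether the replicates were separate egg collections.

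PGCs form at the posterior pole of the embryo, keep their transcription largely silent at first, then cross the midgut wall and migrate through the mesoderm to the somatic gonad. Promoters are short stretches around start sites where nucleosomes are displaced and the transcription machinery assembles, and in flies many promoters of housekeeping genes carry short sequence elements bound by DREF, M1BP or BEAF-32, while promoters of developmental genes more often carry GAGA repeats or a TATA box. OVO is a zinc finger protein of the female germ line that binds near start sites of germline genes. Open chromatin at a promoter permits transcription but does not measure it.

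The sequences of 6 members are shown because the results below turn on them. They are the 3 tallest members (kek1, trol and numb), a germline transcription factor (ovo), a piRNA factor (qin) and the tallest member on X with a DREF element (Ptp10D). Each run is 220 bases on the strand of the gene, with 200 bases before the start site and 20 bases from it, read from the RefSeq genome of release 6. Capitals mark exact matches on either strand to GAGAG (GAGA factor), TATCGATA (the DRE of DREF), TAACNGT (OVO) and GGTCACACT (Motif 1, bound by M1BP).
kek1: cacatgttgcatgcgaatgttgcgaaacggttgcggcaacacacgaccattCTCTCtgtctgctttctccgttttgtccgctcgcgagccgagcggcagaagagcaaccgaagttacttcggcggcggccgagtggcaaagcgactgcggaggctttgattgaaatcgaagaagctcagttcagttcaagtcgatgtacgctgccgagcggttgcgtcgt
trol: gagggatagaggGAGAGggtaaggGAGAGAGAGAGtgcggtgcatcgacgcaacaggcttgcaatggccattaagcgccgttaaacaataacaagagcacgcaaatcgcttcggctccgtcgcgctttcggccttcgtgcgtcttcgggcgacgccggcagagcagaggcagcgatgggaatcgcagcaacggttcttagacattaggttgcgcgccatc
numb: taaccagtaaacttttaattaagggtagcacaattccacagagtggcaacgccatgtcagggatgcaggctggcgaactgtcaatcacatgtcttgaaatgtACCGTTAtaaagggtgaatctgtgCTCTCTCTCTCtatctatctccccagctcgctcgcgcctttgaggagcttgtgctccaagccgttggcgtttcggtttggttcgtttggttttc
ovo: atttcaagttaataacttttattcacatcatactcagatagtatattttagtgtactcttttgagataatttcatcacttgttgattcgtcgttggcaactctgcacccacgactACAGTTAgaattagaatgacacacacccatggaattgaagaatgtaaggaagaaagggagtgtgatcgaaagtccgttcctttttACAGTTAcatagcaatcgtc
qin: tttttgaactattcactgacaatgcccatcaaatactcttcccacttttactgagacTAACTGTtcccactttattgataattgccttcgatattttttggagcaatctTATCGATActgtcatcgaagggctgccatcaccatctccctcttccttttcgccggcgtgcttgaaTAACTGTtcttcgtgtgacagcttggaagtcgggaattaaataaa
Ptp10D: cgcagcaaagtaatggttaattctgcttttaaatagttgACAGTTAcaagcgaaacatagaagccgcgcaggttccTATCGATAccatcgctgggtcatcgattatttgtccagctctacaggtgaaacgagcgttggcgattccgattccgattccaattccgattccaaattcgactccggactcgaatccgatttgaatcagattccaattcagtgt
These windows lie at chr2L:12822768-12822987, minus strand for kek1, chrX:2545408-2545627, minus strand for trol, chr2L:9437269-9437488, plus strand for numb, chrX:5064033-5064252, plus strand for ovo, chr3R:18590827-18591046, plus strand for qin and chrX:11621815-11622034, plus strand for Ptp10D. The windows of kek1, trol and numb held GAGAG or its reverse complement, first matched at base -149, base -188 and base -74, counted from the start site with -1 as the base just before it. The ovo window held the OVO element at base -85 and at base 1, on the start site itself. The qin window held it at base -143 and base -25 with a DRE between them at base -91. The Ptp10D window held a DRE at base -124 and the OVO element at base -161, and the numb window also held the OVO element, at base -98.

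Genes of cell signalling, transcription and the cell surface were among those at the tallest members. The highest peak, 305.1 RPKM, had its summit at -39 bp from the start site of kek1 (negative distances are upstream), which encodes a leucine-rich repeat membrane protein that restrains the EGF receptor. The second, 299.9 RPKM at -99 bp, belonged to trol, the fly perlecan of basement membranes, and a lower member of 134.1 RPKM stood at another trol start. Numb, an endocytic adaptor that blocks Notch signalling in asymmetric divisions, had a peak of 285.4 RPKM at -43 bp, and Nedd4, a ubiquitin ligase that also limits Notch, 266.7 RPKM at 20 bp. In the list of somatic peaks the nearest entry was 28200 bp from the kek1 peak, 40600 bp from trol, 4200 bp from numb and 2750 bp from Nedd4.

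Among the 40 tallest members, 10 lay nearest to signalling genes, 9 to genes of transcription and chromatin, 6 to tRNA genes, 5 to cell surface, matrix and adhesion genes, 2 to metabolic genes and 2 to long non-coding RNAs. Another, of 224.4 RPKM, lay between sta, a protein of the small ribosomal subunit, and its divergent neighbour inc, and 5 were nearest to genes for which no role is given here. Roles were given by hand to these 40 alone, so no share over all members or all genes stands beside the counts. The signalling genes included rut, the adenylate cyclase of memory formation (246.1 RPKM), spri, a Ras and Rab5 effector (236 RPKM), sgg, the GSK3 kinase of the Wnt pathway (196.5 RPKM), and the Tec kinase Btk (190.9 RPKM). The cAMP phosphodiesterase dnc, which acts against rut, had a pair of members of 130.3 and 132.8 RPKM. The chromatin and transcription genes included retn, an ARID domain protein (256.2 RPKM), crm, a chromatin protein that interacts with Polycomb genes (223.8 RPKM), shn, a zinc finger protein of the Dpp pathway (219.7 RPKM), fru, a BTB zinc finger protein of sex determination (214.5 RPKM), His3.3B, a replacement histone (212.8 RPKM), and Antp, a Hox gene (203 RPKM). Neural and adhesion genes such as shakB, an innexin of electrical synapses (246.4 RPKM), Ptp10D, a receptor tyrosine phosphatase (214.8 RPKM), and Sema2b, a secreted guidance cue (203.8 RPKM), were in the same height range.

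**Figure D1:**
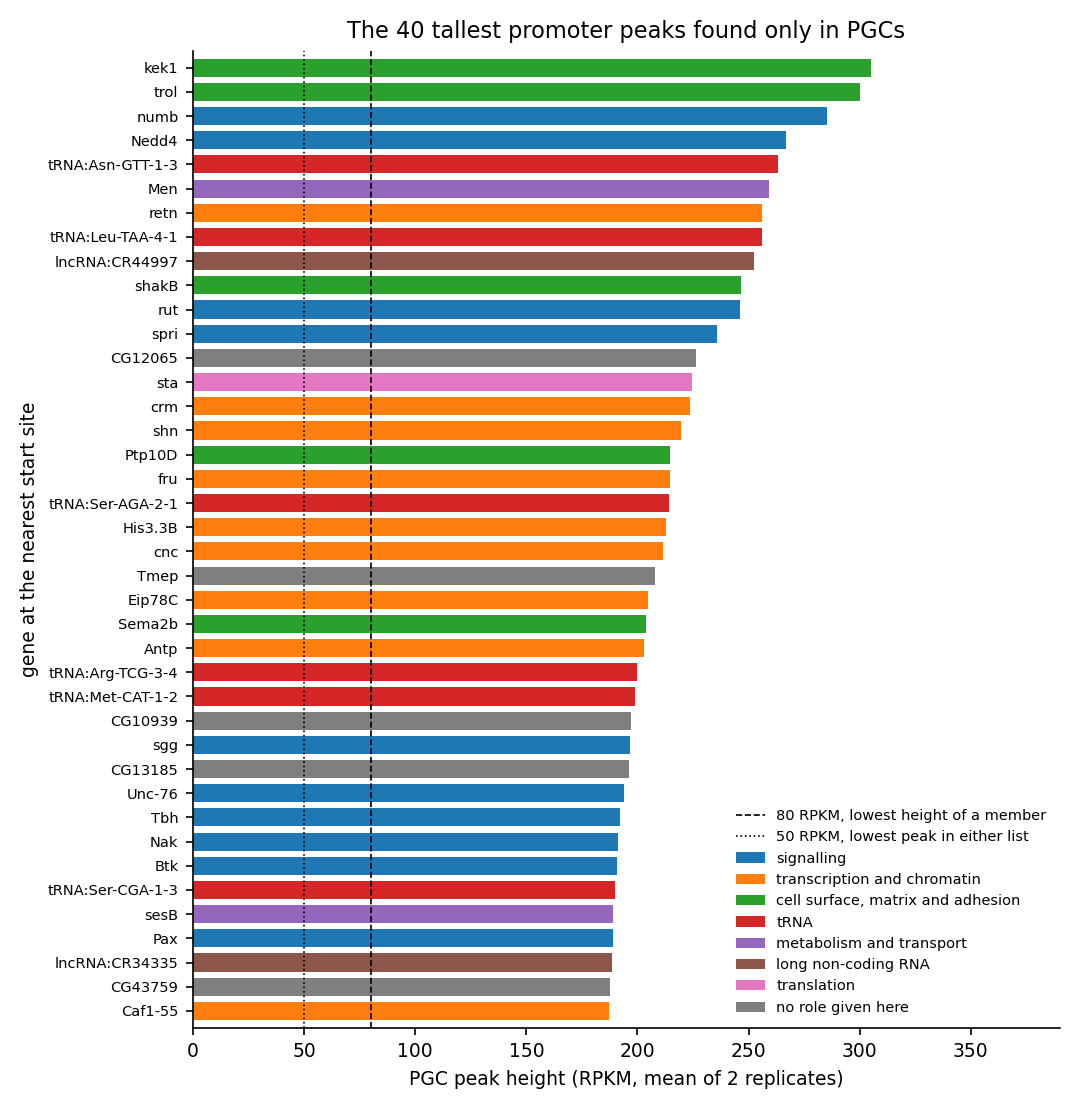
Height in PGCs of the 40 tallest members, in RPKM on a linear axis from 0, each bar named by the gene at the nearest start site and coloured by role. The bars run between 187.3 RPKM (Caf1-55) and 305.1 RPKM (kek1), all above the dashed line at 80 RPKM, the lowest height of a member, and the dotted line at 50 RPKM, the lowest peak in either list.

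Heights of the members ran between 80 and 305.1 RPKM with a median of 101 RPKM, and most stood close to the lower limit, with an upper quartile of 122.9 RPKM. The 3 lowest, at RIOK1 (80 RPKM), CG10214 (80 RPKM) and SMC5 (80.1 RPKM), stood beside CG11929, Camta and SLO2 (79.9 RPKM each), which fell just outside. At the limit of distance, dnt (-499 bp) and path (-498 bp) were inside, while PIG-P (-503 bp) and Rtnl1 (-506 bp) were outside. Of 3613 tall promoter peaks in PGCs, the 1361 members were 37.7%, and the other 2252 overlapped a somatic peak, with a median height of 149.7 RPKM. The share without a somatic peak was lower in each class of greater height: 69.9% at 80 to 90 RPKM, 59.4% at 90 to 100 RPKM, 17.4% at 150 to 200 RPKM and 3.24% at 250 to 400 RPKM, and none of the 81 peaks of 400 RPKM or more, which allows up to 4.45% (exact 95% interval). With a somatic peak that covers less than 50% of the PGC peak counted as absent, there were 2519 members in place of 1361.

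The limit of 80 RPKM was set on the PGC height alone, so the heights at the 2252 shared promoter peaks are a description of chosen peaks. Their PGC height was 1.46 times the somatic height in the median at 80 to 100 RPKM, 1.97 times at 100 to 150 RPKM and 2.66 times at 150 RPKM or more. Without a minimum beyond the lowest peak of 50 RPKM in either list, 3053 promoter peaks were shared, with a median ratio of 1.84 and a higher value in PGCs at 85.4%. Where the somatic peak reached 80 RPKM or more (869 of them), the ratio was 2.00. The somatic signal beneath the threshold was not in the files, and a difference in the scale of the averages cannot be told apart from a difference in accessibility. The distance to the nearest somatic peak had a median of 1950 bp, 10 members touched one without sharing a base (among them DUBAI, alpha-Man-IIb and HtrA2), and the farthest was 79150 bp away, at CG42258 on X. At 70.0% of members (953) no somatic peak lay within 1000 bp of the start site.

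Summits clustered on the start site. The median distance was 44 bp in either direction, against 66 bp at tall promoter peaks shared with somatic cells, and 54.5% of members had their summit within 50 bp and 76.1% within 100 bp of the start, against 43.1% and 62.2% of shared peaks. Summits lay upstream at 64.5% of members and at 65.9% of shared peaks, and 89.2% and 92.1% of the peaks covered the start site. Members were narrower, with a median width of 350 bp against 650 bp at their lower height, and the widest were at CG8929 (1950 bp), CG32813 (1800 bp) and CG3764 (1750 bp). Since summits and borders follow 50-bp steps of the coverage, a smaller difference for a given peak is within that step. Start sites of both strands lay within 500 bp of 28.1% of members (25.8 to 30.6%) and 28.9% of shared peaks (27.0 to 30.8%), and these counting intervals overlap.

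**Figure D2:**
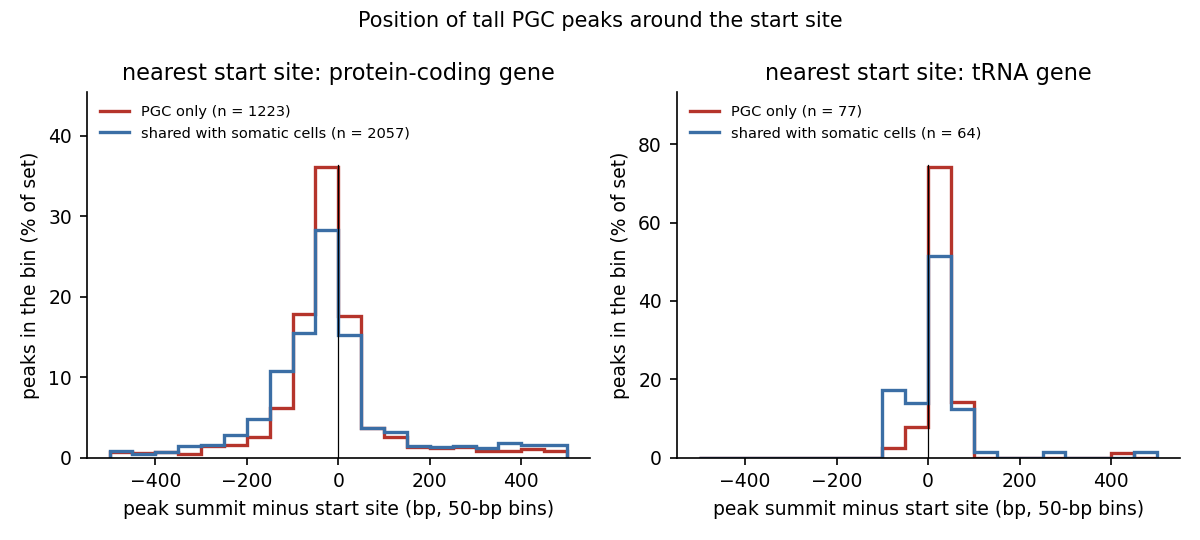
Position of peak summits relative to the nearest start site in 50-bp bins (negative is upstream), as the percentage of peaks in each set, for members (red) and tall peaks shared with somatic cells (blue), at protein-coding genes on the left and tRNA genes on the right. The fullest bin is -50 to 0 bp for members at protein-coding genes (36.1%) and 0 to 50 bp for members at tRNA genes (74.0%).

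The nearest start site belonged to a protein-coding gene at 1223 members, to a tRNA gene at 77, to a non-coding RNA at 46, to an snRNA at 8, to an snoRNA at 4 and to a pseudogene at 3. In all, 1573 of 13945 protein-coding genes (11.3%) had a start site within 500 bp of a member's summit, which is the background for the gene groups below, and 18.1% had one near a tall shared peak. Because neighbouring start sites share a peak, a gene group can be counted through the promoter of a neighbour, and such genes are named as such. Transposable element copies overlapped 1.32% of members, against 1.95% of shared promoter peaks and 16.4% of the 742 equally tall PGC-only peaks away from start sites.

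Genes that guide PGCs on their way to the gonad were among those with members. Of 13 listed migration genes 8 had a member (61.5%, exact 95% interval 31.6 to 86.1%), against the 11.3% of all protein-coding genes, and 4 had one of 100 RPKM or more. Tall shared peaks lay at 5 of the 13 (38.5%, against 18.1% of all protein-coding genes). All 13 had a PGC peak of some height, against 48.2% of all protein-coding genes. Tre1, the G protein-coupled receptor that PGCs need to leave the midgut, had a peak of 97.9 RPKM at -49 bp, and the nearest somatic peak was 1900 bp away. The lipid phosphate phosphatases wun and wun2, which repel migrating PGCs from the soma, had peaks of 161.9 and 100.8 RPKM on neighbouring promoters. The zinc transporter foi, needed for gonad formation, had 135.1 RPKM, and 2 enzymes of isoprenoid synthesis had members, qm with 95.7 RPKM and Fpps with 91.3 RPKM, the last through a nearer start of a neighbour and beside a tall shared peak. The remaining 2, zfh1 (93.3 RPKM) and srp (100.6 RPKM), encode transcription factors known for work in mesoderm and midgut or fat body. Another zfh1 start, 17332 bp away, had a shared peak of 451.8 RPKM. The tallest somatic peak within 1000 bp of the start had 58.4 RPKM at wun2, 71.7 RPKM at srp and 55.5 RPKM at zfh1. It had 94.8 RPKM at the start nearest to the Fpps member, and there was no such peak at Tre1, wun, foi or qm.

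Germline genes were present but not the tallest. The germline list served as a check of the sort. All 11 of its genes had a PGC peak of any height at a start site and 3 had a somatic one. Among 20 somatic tissue genes, 18 had a PGC peak and 17 a somatic one. For all protein-coding genes these shares were 48.2% and 28.2%, so the somatic share of the germline list (27.3%) was near that of all genes. Of the 11, 3 had a member, namely ovo, with members of 116.6 and 84.1 RPKM at successive start sites, and otu, a deubiquitinase of oogenesis (123.7 RPKM), and stil, a regulator of otu (115.7 RPKM), the last pair both through a nearer start of a neighbour. At stil a separate somatic peak of 54.4 RPKM also had its summit within 500 bp of the start. The peak at vas itself reached 69.8 RPKM, aub 72.8 RPKM and pgc 52.2 RPKM, below the limit of 80 RPKM, and nanos (158.1 RPKM) and zpg (140.3 RPKM) overlapped somatic peaks of 54.4 and 54 RPKM. Of 28 genes of germ plasm and translational control 6 had a member, among them cup, a translational repressor bound to eIF4E (108.9 RPKM), bcd, the anterior determinant (89.3 RPKM), stau, an RNA-binding transport factor (81 RPKM), and bam, the switch to germ cell differentiation, whose members of 80.9 and 80.8 RPKM barely passed.

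The piRNA pathway silences transposable elements with small RNAs loaded on Piwi proteins. Of 37 of its genes 10 had a member (27.0%, 13.8 to 44.1%) and 6 a tall shared peak. All 3 parts of the complex that marks dual-strand clusters were among them, rhi with 84.1 RPKM, del with 94.2 RPKM and cuff with 196.1 RPKM, the last at a nearer start of CG13185. Boot, which carries cluster transcripts out of the nucleus, had 103 RPKM. Among cytoplasmic factors, the helicase armi had 110.4 RPKM and the Tudor proteins tapas and qin 113.4 and 93.3 RPKM. Another tapas start, 1814 bp away, had a shared peak of 131.2 RPKM. The core of Yb bodies in somatic gonad cells, fs(1)Yb, had 125.1 RPKM at a nearer start of a neighbour. The heterochromatin factors wde and sov had 103.9 and 86.3 RPKM. Separate somatic peaks lay near a start of wde (78.8 RPKM) and 600 bp from the armi member (74 RPKM). The genes of the Piwi proteins had lower PGC peaks, of 52.7 RPKM at piwi, 72.8 RPKM at aub and 60.3 RPKM at AGO3.

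Chromatin regulators of the Polycomb and Trithorax groups had members at 8 of 28 genes (28.6%, 13.2 to 48.7%). The tallest were at Caf1-55, a histone-binding subunit of PRC2 and of other complexes (187.3 RPKM), and Asx, a subunit of a histone H2A deubiquitinase (142.1 RPKM). Next came pho, a DNA-binding Polycomb protein (131.1 RPKM), the PRC2 subunit Su(z)12 (116.8 RPKM) and the remodeler kis (116.2 RPKM). Another kis start, 28861 bp away, had a shared peak of 370 RPKM. The others were the H3K27 demethylase Utx (102.6 RPKM), the H3K4 methyltransferase trr (91.8 RPKM) and l(3)mbt (82.8 RPKM). Su(z)12, trr and l(3)mbt were reached through a neighbour's nearer start. The list had 13 genes with a tall shared peak. Cell cycle genes had members at 5 of 39 (12.8%), including CycD (136.9 RPKM), the checkpoint kinase lok (133.5 RPKM) and Cdk2 (89.8 RPKM), and tall shared peaks at 19. DNA replication genes had members at 3 of 28 (10.7%), of which Psf3 (145.2 RPKM) and Psf2 (113.7 RPKM) encode subunits of the GINS helicase complex. Both shares were near the 11.3% of all protein-coding genes.

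Large families of housekeeping genes had members, while receptor and cuticle genes had few members and few tall shared peaks. These families were gathered by gene name after the members had been seen. Tall shared peaks lay at 40.9% of cytoplasmic and 19.2% of mitochondrial ribosomal protein genes, against 18.1% of all protein-coding genes. Proteasome (22.9%) and oxidative phosphorylation genes (20.7%) were also near that share. Cytoplasmic ribosomal protein genes had a member at 23 of 88 (26.1%, 17.3 to 36.6%) and a tall shared peak at 36, and mitochondrial ribosomal protein genes at 18 of 73 (24.7%) and 14. RpL8 (143.4 RPKM), RpL27 (123.3 RPKM) and RpS6 were among the first group. RpS6 had 94.8 RPKM at its own start and 122.6 RPKM through a nearer start of its neighbour bys. Proteasome genes had a member at 12 of 48 and a tall shared peak at 11, the catalytic core subunit Prosbeta2 with 122.3 RPKM and the ATPase Rpt4 with 120.9 RPKM among them. Oxidative phosphorylation genes had members at 17 of 92, all in the low range of 80.4 to 105.6 RPKM, and tall shared peaks at 19. The CCT chaperonin, which folds actin and tubulin, had members at 3 of 8 genes (CCT2 131 RPKM, CCT4 108.2 RPKM and CCT3 82.1 RPKM) and no tall shared peak. Autophagy genes had members at 6 of 20, the tallest at Atg3 (140.8 RPKM), and tall shared peaks at 5. By contrast 1 of 119 odorant and gustatory receptor genes (Gr97a, 110.7 RPKM), 2 of 85 cytochrome P450 genes and 0 of 71 Cpr cuticle genes had one, and the last allows up to 5.06%. Tall shared peaks lay at 0, 1 and 1 genes of these 3 families.

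Somatic tissue genes had members at 3 of 20 (15%, 3.21 to 37.9%), near the 11.3% of all protein-coding genes, and tall shared peaks at 13. The 3 were the FGF receptor of the trachea, btl (112.9 RPKM), the blood and midgut factor srp and the epidermal factor grh (89.5 RPKM, beside a tall shared peak). Of the 2 listed somatic gonad genes, tj had a member of 85.9 RPKM, with a somatic peak of 67.1 RPKM 550 bp away. The other, eya, had a tall shared peak of 120.3 RPKM in PGCs, and its somatic peak reached 118.8 RPKM. Meiosis genes had members at 2 of 31 (6.45%), bol and, at a neighbour's nearer start, mei-P22. Another bol start, 4050 bp away, had a shared peak of 185.3 RPKM. The testis transcription list had members at 2 of 29 (6.90%), bol (110 RPKM) and mip40 (91.8 RPKM). The part of somatic cells carried over in the sort was not tested for these peaks.

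**Figure D3:**
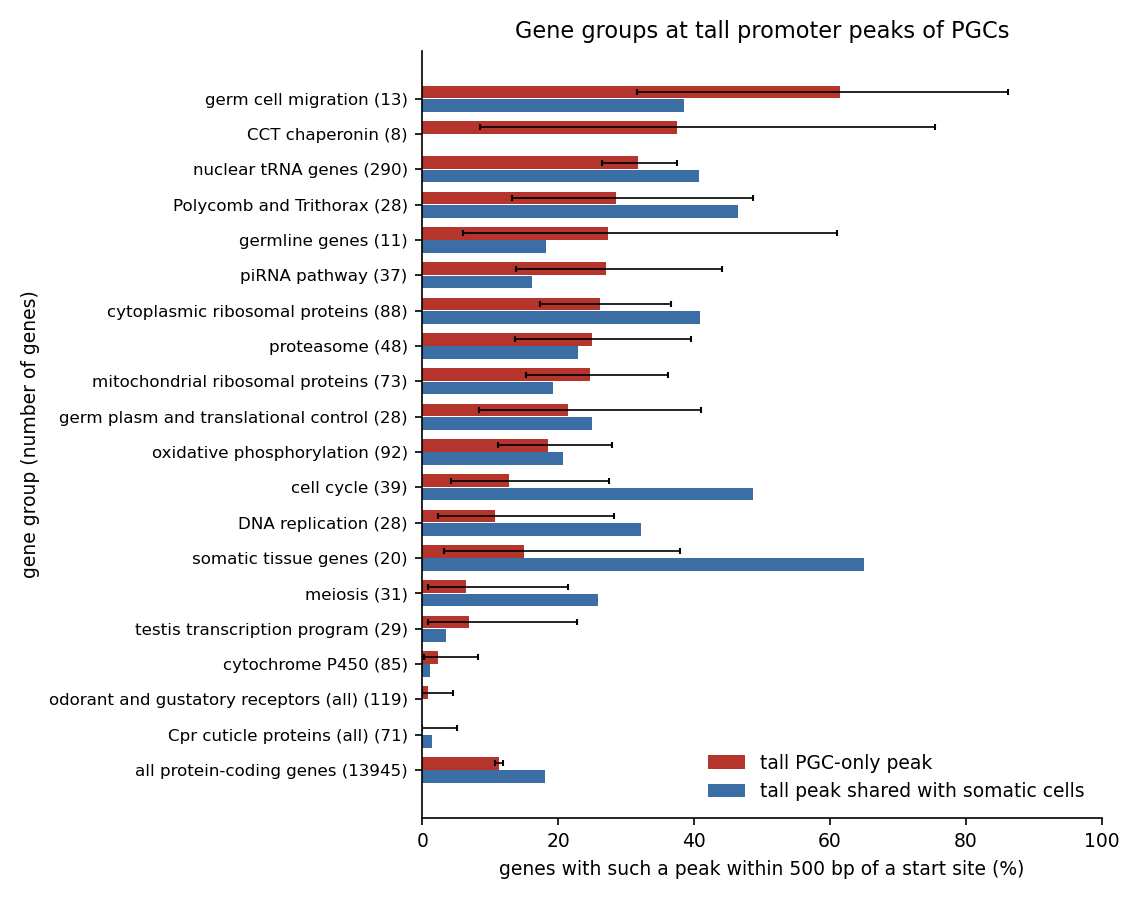
Percentage of genes of each group with a member (red, with exact 95% interval) or a tall peak shared with somatic cells (blue) within 500 bp of a start site, with the number of genes in parentheses. Migration genes reach 61.5% for members, against 11.3% of all protein-coding genes at the bottom, and the cuticle family has none.

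tRNA genes, which RNA polymerase III transcribes from promoter boxes inside the gene, had members whose summits mostly lay just downstream of the start. Of 290 nuclear tRNA genes, 92 had a start within 500 bp of a member's summit (31.7%, 26.4 to 37.4%) and 118 within 500 bp of that of a tall shared peak. At the 77 members nearest to a tRNA gene the median summit was 27 bp downstream, within the gene, and 68 of them (88.3%) lay 0 to 100 bp downstream, against 21.7% of members at protein-coding genes, whose median was -23 bp. Their median height was 120.6 RPKM, against 100.1 RPKM at protein-coding genes, and 11 of the 100 tallest members were of this kind. The tallest, 263.2 RPKM, lay over the neighbours tRNA:Asn-GTT-1-2 and tRNA:Asn-GTT-1-3. Tall shared peaks at tRNA genes were higher still (median 241.35 RPKM) and wider (900 bp, against 300 bp), and 40 of those 64 took in several tRNA genes, against 12 of the 77 members.

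The tRNA genes themselves are shown for the 3 tallest members whose gene held the letters of the internal B box, GTTCGANNC, marked in capitals, to show the internal promoter beneath the peak.
tRNA:Leu-TAA-4-1: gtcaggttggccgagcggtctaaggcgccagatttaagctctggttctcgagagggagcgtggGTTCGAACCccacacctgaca
tRNA:Ser-AGA-2-1: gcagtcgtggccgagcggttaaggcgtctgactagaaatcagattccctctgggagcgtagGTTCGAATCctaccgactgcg
tRNA:Arg-TCG-3-4: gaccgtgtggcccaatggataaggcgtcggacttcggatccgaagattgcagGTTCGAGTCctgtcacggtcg
They lie at chr3R:24265259-24265342, plus strand, at chrX:14025566-14025647, minus strand, and at chrX:14017212-14017284, plus strand, and their peaks reached 256.2, 214.4 and 200 RPKM. The summits were 17 bp, 71 bp and -36 bp from the first base, and the box began at base 64, base 62 and base 53. This exact box was in 60 of the 92 tRNA genes with a member (65.2%) and in 160 of all 290 (55.2%). By amino acid, tRNA genes with a member were most frequent for glycine (12 of 20), valine (8 of 15) and threonine (8 of 17), where a peak can count for several genes. None of the 7 cysteine or 8 tryptophan genes had a member, while tall shared peaks lay at 3 and 5 of them. Many tRNA genes have near-identical copies, so reads may have been placed at one copy or dropped, and single genes within a family are uncertain.

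The X chromosome held more of the members than of the shared peaks, 23.1% (315 of 1361) against 14.7%. Of 647 tall promoter peaks on X, 48.7% (44.8 to 52.6%) had no somatic peak, against 35.3% (33.5 to 37.0%) of 2966 on the autosomes, where the arms ranged between 33.0% (2R) and 37.997% (2L). The gap was seen in each of the 3 height classes: 79.0% on X and 62.5% on autosomes at 80 to 100 RPKM, 56.2% and 39.7% at 100 to 150 RPKM, and 18.9% and 8.10% above that. The shared peaks were themselves taller in PGCs on X, with a median of 166.1 RPKM against 146.85 RPKM on autosomes. Within height classes their ratio of PGC to somatic height was 1.52 on X and 1.45 on autosomes at 80 to 100 RPKM, 2.06 and 1.96 at 100 to 150 RPKM, and 2.78 and 2.62 above that. Of the 25 tallest members 11 are X-linked, namely trol, lncRNA:CR44997, shakB, rut, spri, CG12065, sta, crm, Ptp10D, tRNA:Ser-AGA-2-1 and His3.3B.

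**Figure D4:**
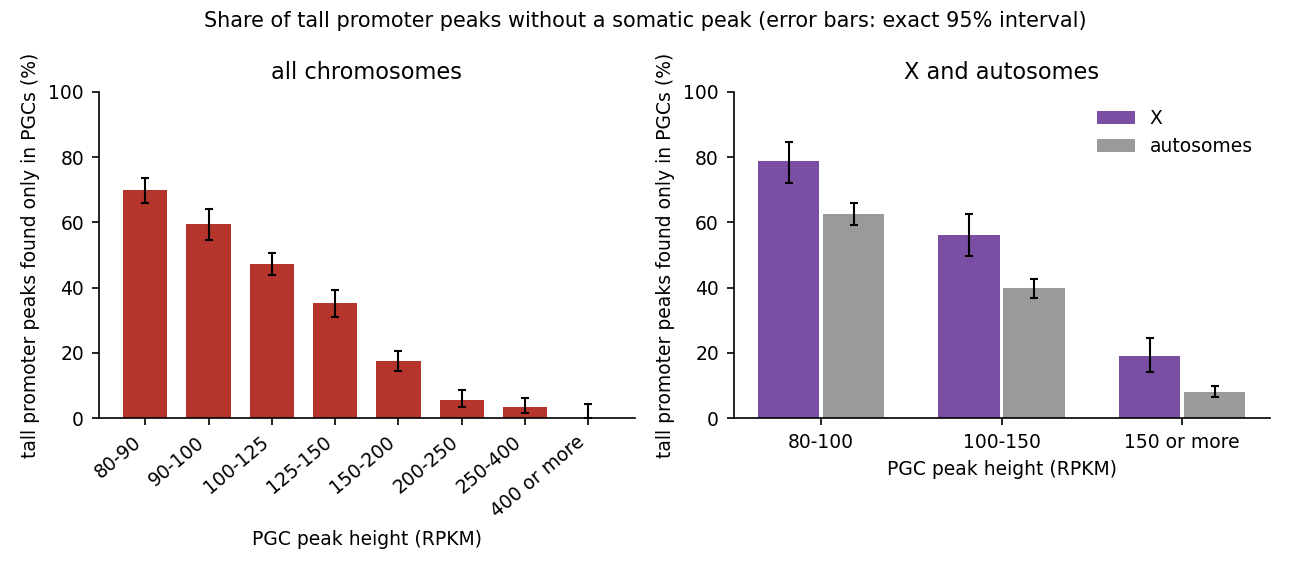
Percentage of tall promoter peaks of PGCs that have no somatic peak, by PGC peak height in RPKM, with exact 95% intervals as error bars, for all chromosomes on the left and for X (purple) and autosomes (grey) on the right. The share is 69.9% at 80 to 90 RPKM and 0 of 81 peaks at 400 RPKM or more, and X lies above the autosomes in each of the 3 height classes.

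Many members stood at only 1 of several start sites of their gene. Of the 1223 members nearest to a protein-coding gene, 399 had another start site of the same gene over 500 bp from the summit. At 112 of these (28.1%, 23.7 to 32.8%) a peak shared by both cell types lay at such a start. The same share was not computed over all genes with several starts, so it describes the members alone. At numb the PGC-only start had 285.4 RPKM, while a start 12361 bp away had a shared peak, 131.9 RPKM high in PGCs and 150.6 in somatic cells. At Antp the shared start was 66388 bp away with a PGC height of 162.3 RPKM and a somatic height of 55.5 RPKM, and at Eip78C, an ecdysone-induced nuclear receptor, it was 13738 bp away with a PGC height of 60.3 RPKM and a somatic height of 60.6 RPKM. Nedd4, retn, shn and cnc, the Nrf2 homolog of the oxidative stress response, had the same arrangement, and at cnc 3 PGC-only starts (211.3, 147.1 and 113 RPKM) accompanied a shared one, of 84.2 RPKM in PGCs against 62.9 in somatic cells. Each of these genes thus had an open start in both cell types and a further one in the PGC list alone. In all 35 genes had several members, with 4 at Mnt, the Max partner that opposes Myc, and 3 each at cnc, sgg and spoon.

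Sequence around the start site was not used to choose the members, and was searched in 300 bases, 250 before and 50 from the start, at the 1223 members of protein-coding genes. The OVO element TAACNGT was in 19.7% of them (17.5 to 22.05%), against 15.0% (13.5 to 16.6%) of 2057 shared promoters and 13.4% of all 13945 protein-coding genes. Its share was 20.6% in members of 80 to 100 RPKM, 18.6% at 100 to 150 RPKM and 19.8% at 150 RPKM or more, and in shared promoters of the lowest class it was 13.1%. The DRE, TATCGATA, was in 15.0% of members (13.0 to 17.1%), 11.9% of shared promoters (10.5 to 13.4%) and 9.36% of all genes. Its intervals in members and shared promoters overlapped. Motif 1, GGTCACACT, was in 11.9% and 11.2% against 6.05% of all genes, and the intervals of members (10.2 to 13.9%) and shared promoters (9.85 to 12.6%) overlapped. The letters CGATA, bound by BEAF-32 and contained in every DRE, were in 54.9%, 50.5% and 47.4%. Beside a DRE such as that of qin or Ptp10D, the match says only that the letters are present. Within 100 bases of the peak midpoint, the OVO element was in 13.7% of members, 8.85% of shared promoters and 13.6% of equally tall PGC-only peaks away from start sites. The DRE was there in 7.93%, 3.99% and 2.16%.

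Around the start site, the DRE differed by chromosome. On X 63 of 294 members held it (21.4%, 16.9 to 26.6%), against 11.6% (8.27 to 15.6%) of X-linked shared promoters and 13.6% of all X-linked genes. On the autosomes 12.9% of members held it, against 11.97% of shared promoters and 8.56% of all genes.

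Set beside shared promoters, GAGA repeats and the Zelda element were less frequent in members, while GAGAG was a little above its share in all genes. GAGAG was in 32.7% of members (30.1 to 35.4%), against 44.8% (42.6 to 47.0%) of shared promoters and 29.7% of all genes. Within 100 bases of the peak midpoint it was in 27.7% of members, 39.3% of shared promoters and 56.1% of equally tall PGC-only peaks away from start sites. Around the start site the share in members followed height, with 29.2% at 80 to 100 RPKM, 33.1% at 100 to 150 RPKM and 50.9% (41.05 to 60.8%) at 150 RPKM or more. Shared promoters had 40.2%, 39.5% and 50.2% in the same classes, so members were lower in all but the last. The tallest members kek1, trol and numb printed above are of this last class. CAGGTA, the element of the pioneer factor Zelda of the early embryo, was in 5.15% of members and 7.83% of shared promoters, and 6.24% of all genes. TATAAA was in 40.5%, 33.3% and 45.8%, anywhere in the window, so that most of these matches need not be TATA boxes at their usual place. GC content moved with these shares, with a median of 44.5% in members and 47.2% in shared promoter peaks, and its part in them was not tested.

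**Figure D5:**
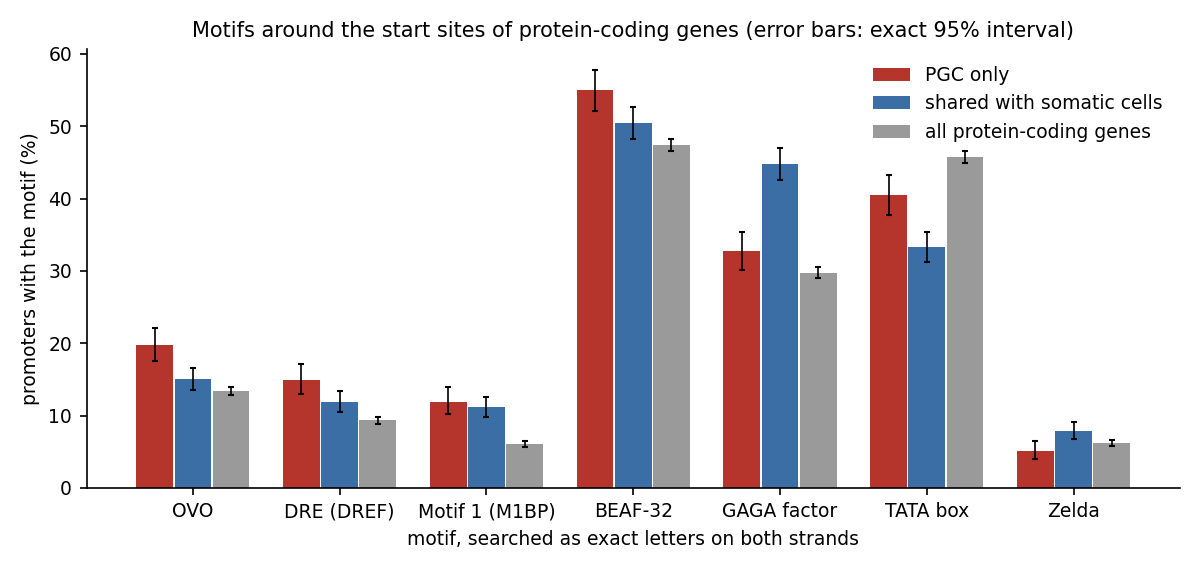
Percentage of promoters with an exact match to each motif within 250 bases before and 50 bases from the start site, for members (red), promoters with a tall shared peak (blue) and all protein-coding genes (grey), with exact 95% intervals. Members lie above both other sets for OVO (19.7%) and the DRE (15.0%), and below the shared promoters for the GAGA factor (32.7% against 44.8%). For the DRE the intervals of members and shared promoters overlap.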

How the data were processed

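Per the labels and the study's methods, the authors used cutadapt 4.2 for trimming, Bowtie2 2.5.1 for alignment to release 6.32, SAMtools 1.17 to drop duplicates and deepTools 3.5.4 for RPKM coverage without blacklisted regions. They averaged both replicates and called peaks with MACS2 (cutoff by hand, at least 60 bp long, gaps of up to 150 bp). A shift of read ends to the transposase's cutting position is not described, and would be small beside the 50-bp steps. The deposited score of each peak is 10 times the RPKM at its summit and was divided by 10. The depth per replicate is unknown from these lists.

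Start sites of 18164 genes came from Ensembl release 115 (no transposable elements), and sequence from the RefSeq release 6 genome. Overlap meant at least 1 shared base. Intervals on shares are exact (Clopper-Pearson, 95%) and speak of counting error alone, because a peak is not a replicate, and the cell types were not tested against each other. Motifs were searched as exact letters on both strands. Members, gene lists and motifs were chosen with earlier results of these data known. Named genes are those of the 25 tallest members, of the fixed lists, of several members, at the limits of the rule, and those given a role among the 40 tallest. Families by gene name, the B box and the X chromosome were looked at after the members had been seen, and genes named from these families were picked after their values. Alternatives changed the height, distance, overlap rule, position, start sites, motif window and motif background. Steps were tested on simulated data in Python 3.11.15 with numpy 2.4.6, pandas 2.3.3, scipy 1.17.1 and matplotlib 3.10.9. The small RNA libraries of ovaries were not used here.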

Additional observations from a re-analysis of the deposited data

How the results depend on the processing

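Of 117 values recomputed under the alternatives, 80 moved by less than their counting interval (or, for counts, by less than 1.5 times), 36 moved by more and 1 changed sign. With a minimum height of 60 RPKM there were 2693 members (median height 80.3 RPKM, median width 250 bp), 67.2% without a somatic peak near the start site and 110 list genes, and with 100 RPKM there were 707 (121.8 RPKM, 400 bp), 35 list genes, 4 migration genes and GAGAG in 36.2%. The share without a somatic peak was then 60.6% on X and 47.3% on autosomes at 60 RPKM, and 37.4% and 24.8% at 100 RPKM. With a promoter distance of 250 bp the median distance was 38 bp and 13.4% had start sites of both strands, and with 1000 bp these were 53 bp and 38.8%. Requiring 200 bp to the nearest somatic peak gave 74.4% without one near the start site and a share of 32.7% on autosomes. Allowing a somatic overlap of less than 50% of the PGC peak changed most: 2519 members (115.1 RPKM, 500 bp), 32.1% with both strands, 37.95% without a somatic peak near the start site, 138 list genes, 168 tRNA genes, and shares of 77.7% on X and 67.97% on autosomes. With midpoints in place of summits the median distance was 73.5 bp and 25.7% had both strands. Within 100 bases of the peak midpoint the DRE was in 7.93%, GAGAG in 27.7% and the OVO element in 13.7% of members. Against promoters with a tall shared peak, the GAGAG share of members was -12.1 percentage points, where against all genes it was 2.99 points higher, and the DRE was 3.05 points higher in place of 5.61. The values for X, autosomes, tRNA genes and migration genes were added after seeing the data. No paired analysis was possible because the lists hold averages over replicates and carry no replicate number, and for the same reason no replicate could be left out. The threshold of 50 RPKM in both lists limits what the absence of a somatic peak says.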
